A study of Mus musculus with 24 samples.

Results

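The 10 genes described here are members of the TNF receptor superfamily: Cd40, Tnfrsf13c, Tnfrsf13b, Tnfrsf17, Fas, Cd27, Tnfrsf1a, Tnfrsf1b, Ltbr and Tnfrsf18. They were chosen by gene symbol from the 27179 genes counted in both raw count tables, and all 10 were found. Their levels were compared between 4 genotypes of mouse B cell at 3 stages, and between stages in control cells.

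TNF receptor superfamily members are membrane proteins that are bound by trimeric ligands of the TNF family and signal through TRAF adaptors or through death domains. In B cells CD40 receives help from T cells. BAFF-R (encoded by Tnfrsf13c) binds the survival factor BAFF, while TACI and BCMA (encoded by Tnfrsf13b and Tnfrsf17) bind both BAFF and APRIL. Others, such as the TNF receptors and the lymphotoxin beta receptor, are known chiefly from inflammation and lymphoid organ development, and Fas is a death receptor.

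RNA was sequenced from lymph node B cells of C57BL/6 mice, either naive or after 48 h of culture with CD40L + IL-4, or 48 h with LPS + IL-4. There were 2 libraries for each genotype and stage, 24 in all. The study asked what the ETS transcription factors PU.1 (encoded by Spi1) and SpiB (encoded by Spib) contribute to gene expression in mature B cells. Control cells were Cd23T/+, so they carried the Cd23-Cre transgene alone. PU.1 cKO cells were Spi1fl/fl Cd23T/+, SpiB KO cells were Spi1fl/fl Cd23+/+ Spib-/- and so carried no Cre, and PU.1 SpiB DKO cells were Spi1fl/fl Cd23T/+ Spib-/-. The Cre is driven from the Cd23 promoter and acts from the transitional B cell stage on, whereas Spib was disrupted in the germline and so in every cell type. By the study's methods the B cells were sorted as CD3-, B220+ and CD138-. The mice were between 6 and 20 weeks old.

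The naive libraries held 14231188 to 18194629 counted reads, the CD40L + IL-4 libraries 9598674 to 61640683 and the LPS + IL-4 libraries 22757630 to 73658850, so that the members at the lowest levels were measured with less precision in CD40L + IL-4. Spib counts were 80.2 to 100 CPM in the 4 naive libraries labelled SpiB KO or PU.1 SpiB DKO against 1355 and 1472 CPM in control, and they were lower than in control in all 8 such cultured libraries too. Whole-gene Spi1 counts include exons outside the floxed part and do not check its removal: they were lower than control in every PU.1 cKO library and in the naive and CD40L + IL-4 PU.1 SpiB DKO libraries, while the LPS + IL-4 PU.1 SpiB DKO libraries, at 63.9 and 58.9 CPM, overlapped the control libraries at 72.0 and 60.7 CPM. The study treated removal of the floxed exon as incomplete in naive PU.1 SpiB DKO cells and as complete after culture. All 6 B cell markers were detected in every group, with summed levels of 2906 to 10440 CPM. The CD40L + IL-4 counts came in a table of their own and the naive and LPS + IL-4 counts in another, so that stage and table cannot be told apart for CD40L + IL-4, and with 2 libraries a group the p-values measure only the spread between these samples, and an exact permutation test of 2 against 2 cannot go below 0.333.

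The promoters of 4 members whose levels differed between genotypes are shown, because PU.1 and SpiB recognise a GGAA core that is usually flanked by purines. Each line gives the 250 bases 5′ of the start of transcription on the gene's strand, from RefSeq on GRCm38.p6, and the capitals mark every GAGGAA or AGGAAGT on either strand (TTCCTC or ACTTCCT where the match is on the other strand). The stretches are chr15:82224381-82224630, minus strand, for Tnfrsf13c, chr11:61126505-61126754, plus strand, for Tnfrsf13b, chr4:145246871-145247120, minus strand, for Tnfrsf1b, and chr6:125313886-125314135, minus strand, for Ltbr.
Tnfrsf13c: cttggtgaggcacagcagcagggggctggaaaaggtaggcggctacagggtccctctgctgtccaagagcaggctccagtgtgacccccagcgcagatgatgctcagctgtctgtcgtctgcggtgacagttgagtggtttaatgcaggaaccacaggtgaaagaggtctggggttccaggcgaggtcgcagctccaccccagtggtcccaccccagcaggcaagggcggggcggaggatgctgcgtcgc
Tnfrsf13b: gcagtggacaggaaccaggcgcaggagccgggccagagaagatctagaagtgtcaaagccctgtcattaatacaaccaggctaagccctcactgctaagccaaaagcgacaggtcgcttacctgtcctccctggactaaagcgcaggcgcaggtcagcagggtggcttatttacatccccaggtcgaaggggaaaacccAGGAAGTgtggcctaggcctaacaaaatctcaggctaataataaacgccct
Tnfrsf1b: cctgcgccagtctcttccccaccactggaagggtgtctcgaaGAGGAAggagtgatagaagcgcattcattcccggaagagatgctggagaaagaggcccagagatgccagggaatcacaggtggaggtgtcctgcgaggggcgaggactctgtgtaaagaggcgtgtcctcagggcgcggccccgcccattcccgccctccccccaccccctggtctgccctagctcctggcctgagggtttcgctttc
Ltbr: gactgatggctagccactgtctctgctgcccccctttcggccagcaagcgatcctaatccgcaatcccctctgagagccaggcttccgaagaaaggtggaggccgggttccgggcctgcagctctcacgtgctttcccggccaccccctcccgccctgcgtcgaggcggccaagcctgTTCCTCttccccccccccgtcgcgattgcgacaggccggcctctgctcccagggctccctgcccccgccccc

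A promoter window of 250 bases before and 50 after the start was found for 9 of the 10 members, all but Cd40. The core GGAA was present in 96.0% of 32851 mouse windows on one strand or the other, GAGGAA in 28.3% and AGGAAGT in 9.35%, with GAGGAA and AGGAAGT each containing the core. AGGAAGT lay at -51 to -45 in Tnfrsf13b on the gene's strand, and at 20 to 26 after the start in Ltbr on the other strand. GAGGAA lay in Tnfrsf1b at -208 to -203 and in Ltbr at -72 to -67, and also in Tnfrsf17 and Tnfrsf18. The Tnfrsf13c and Tnfrsf1a windows held 4 and 6 copies of the core and neither longer motif. A match describes the letters in the window and is not a binding site, and its absence does not mean that none is there. The study re-analysed PU.1 ChIP-seq (sequencing of DNA bound by PU.1) from LPS-activated plasmablasts and reported binding in the proximal promoters of Tnfrsf13c and Cd40.

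In naive control cells the deposited RPKM, which is corrected for gene length, was highest for Tnfrsf13c (mean 293, n = 2), followed by Tnfrsf13b at 173, Cd40 at 85.4, Tnfrsf18 at 24.7 and Tnfrsf1b at 14.1. Fas at 3.4, Cd27 at 3.01 and Tnfrsf1a at 1.24 were lower, Ltbr was at 0.284 and Tnfrsf17 was at the bottom of the scale at 0.0404. In CD40L + IL-4 control cells Tnfrsf13c was at 165, Tnfrsf13b at 75.6, Cd40 at 75.3, Tnfrsf1b at 16.5, Tnfrsf18 at 9.27 and Fas at 7.33, and the libraries of Tnfrsf13b and Cd40, like those of Tnfrsf18 and Fas, overlapped each other. In LPS + IL-4 control cells Tnfrsf13b at 250.3 and Tnfrsf13c at 225 led, ahead of Cd40 at 109, Tnfrsf1b at 18.3, Fas at 4.95 and Tnfrsf18 at 2.99. The LPS + IL-4 values were normalized apart from the others, so their order is read within the stage. Tnfrsf13c, Tnfrsf13b and Cd40 were thus the 3 members with the highest levels at each stage.

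Levels below are CPM (read counts scaled to a common library size) at the TMM library sizes of each stage, which serve to compare libraries and not genes. Fold changes and their standard errors come from edgeR's quasi-likelihood test on the counts. A member was called where the Benjamini-Hochberg adjusted p was under 0.15 and the fold over 1.5, the adjustment running over all 12500 genes tested in naive cells, 12721 after CD40L + IL-4, 12445 after LPS + IL-4 and 13684 across stages. Every comparison with control at a stage uses the same 2 control libraries.

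Loss of PU.1 and SpiB together went with lower Cd40 and Tnfrsf13c at all 3 stages, with higher Tnfrsf1b in both cultures, and with higher Tnfrsf1a and Ltbr in naive cells. All of these but Tnfrsf13c were also called the same way in a single genotype at the same stages. These were Cd40 and Tnfrsf1b in PU.1 cKO, and Tnfrsf1a and Ltbr in SpiB KO. Of 9 members tested in naive cells, 4 were called in PU.1 SpiB DKO against control (2 higher, 2 lower), where 21.2% of all genes were called. Ltbr passed the filter there only through the libraries without SpiB and so adds nothing to the count. In CD40L + IL-4 3 of 9 were called (1 higher, 2 lower) against 18.3% of all genes, and in LPS + IL-4 4 of 6 (1 higher, 3 lower) against 20.2%. In the LPS + IL-4 count the 6 members tested were those above the filter on low counts, so it does not describe all 10.

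In PU.1 cKO against control 1 of 9 members was called in naive cells (Cd40), where 10.7% of all genes were called. In CD40L + IL-4 5 of 9 were called (Cd40, Fas and Tnfrsf18 lower, Tnfrsf1b and Tnfrsf17 higher) against 13.5%, where Tnfrsf17 passed the filter only through the PU.1 cKO libraries and so adds nothing to the count, and in LPS + IL-4 2 of 6 (Cd40 lower, Tnfrsf1b higher) against 10.5%. In SpiB KO against control 2 of 9 were called in naive cells (Tnfrsf1a and Ltbr, both higher) against 9.62%. Here too Ltbr passed the filter only through the libraries without SpiB and adds nothing to the count. None was called by edgeR in SpiB KO in CD40L + IL-4, against 0.134% of all genes, nor in LPS + IL-4, against 3.19%. At an unadjusted p under 0.05 these 2 counts were 0 and 3, and DESeq2 and voom also called 0 in each.

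PU.1 SpiB DKO cells were also set against each single genotype. In naive cells the study reported the floxed Spi1 exon as fully removed in PU.1 cKO but partly retained in PU.1 SpiB DKO. The naive comparison with PU.1 cKO thus differs in Spi1 deletion as well as in Spib. Against PU.1 cKO, 4 of 9 members were called in naive cells (Tnfrsf1a, Ltbr and Cd27 higher, Tnfrsf13c lower) with 12.9% of all genes. Ltbr passed that filter only through the libraries without SpiB and adds nothing to the naive count. In CD40L + IL-4 1 of 9 was called (Tnfrsf13c, lower) with 4.06%, and in LPS + IL-4 1 of 6 (Cd40, lower) with 12.6%. Against SpiB KO, 1 of 9 was called in naive cells (Cd40, lower) with 3.03% of all genes, 3 of 9 in CD40L + IL-4 (Cd40 and Tnfrsf13c lower, Tnfrsf1b higher) with 15.3%, and 2 of 6 in LPS + IL-4 (Cd40 and Tnfrsf13c, lower) with 12.8%.

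**Figure D1:**
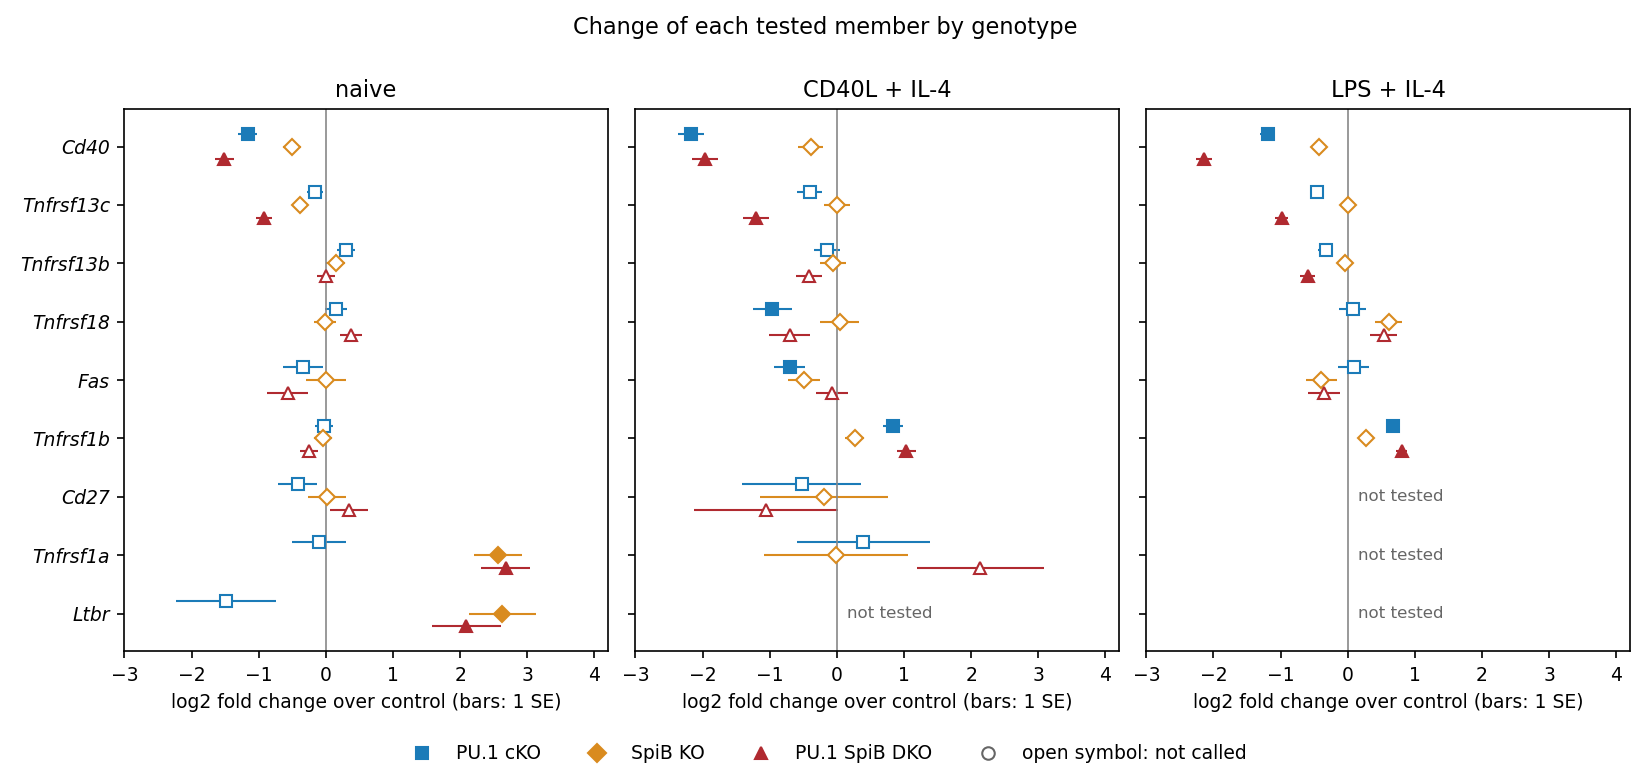
Log2 fold change against control (x axis, ± 1 SE from edgeR) of each tested member for PU.1 cKO, SpiB KO and PU.1 SpiB DKO, with a panel for each stage. Cd40 sits left of 0 in both genotypes without PU.1 at every stage, Tnfrsf1b sits right of 0 in the cultures only, and Tnfrsf1a and Ltbr sit far right in naive cells without SpiB; Tnfrsf17 is not drawn.

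Cd40 (chr2:165055614-165071654 on GRCm38) encodes the receptor through which T cells help B cells, and it was lower in each genotype that lacked PU.1. In naive cells the control libraries held 148 and 147 CPM, PU.1 cKO 75.9 and 56.1, SpiB KO 104 and 104, and PU.1 SpiB DKO 50.6 and 52.6. No 2 genotypes overlapped, and the order ran from control through SpiB KO and PU.1 cKO to PU.1 SpiB DKO. Against control the log2 change was -1.16 (SE 0.14, edgeR adjusted p = 0.00148) for PU.1 cKO and -1.52 (SE 0.14, edgeR adjusted p = 0.000131) for PU.1 SpiB DKO. In SpiB KO it was -0.50 (SE 0.14, edgeR adjusted p = 0.0691), with a fold under 1.5 and so not called.

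After CD40L + IL-4 the Cd40 levels were 114 and 162 CPM for control, 29.6 and 31.6 CPM for PU.1 cKO, 108 and 103 CPM for SpiB KO and 31.4 and 39.1 CPM for PU.1 SpiB DKO. Both genotypes without PU.1 lay far below the others and overlapped each other. The log2 change was -2.17 (SE 0.20, edgeR adjusted p = 7.17e-05) for PU.1 cKO and -1.96 (SE 0.20, edgeR adjusted p = 0.000107) for PU.1 SpiB DKO. In SpiB KO it was -0.39 (SE 0.19, edgeR adjusted p = 1).

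After LPS + IL-4 the levels were 187 and 208 CPM for control, 93.7 and 79.0 CPM for PU.1 cKO, 149 and 145 CPM for SpiB KO, and 41.1 and 48.6 CPM for PU.1 SpiB DKO. Here the 4 genotypes were apart and PU.1 SpiB DKO was lower than PU.1 cKO, with a log2 change of -0.95 (SE 0.11, edgeR adjusted p = 0.00127). Against control the change was -1.19 (SE 0.11, edgeR adjusted p = 0.000187) for PU.1 cKO, -0.43 (SE 0.11, edgeR adjusted p = 0.0969, fold under 1.5) for SpiB KO and -2.14 (SE 0.12, edgeR adjusted p = 3.71e-06) for PU.1 SpiB DKO. As a share of the control mean, PU.1 SpiB DKO cells thus held 35% of Cd40 in naive cells, 25.6% after CD40L + IL-4 and 22.7% after LPS + IL-4. The PU.1 cKO cells held 44.7%, 22.2% and 43.7%.

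**Figure D2:**
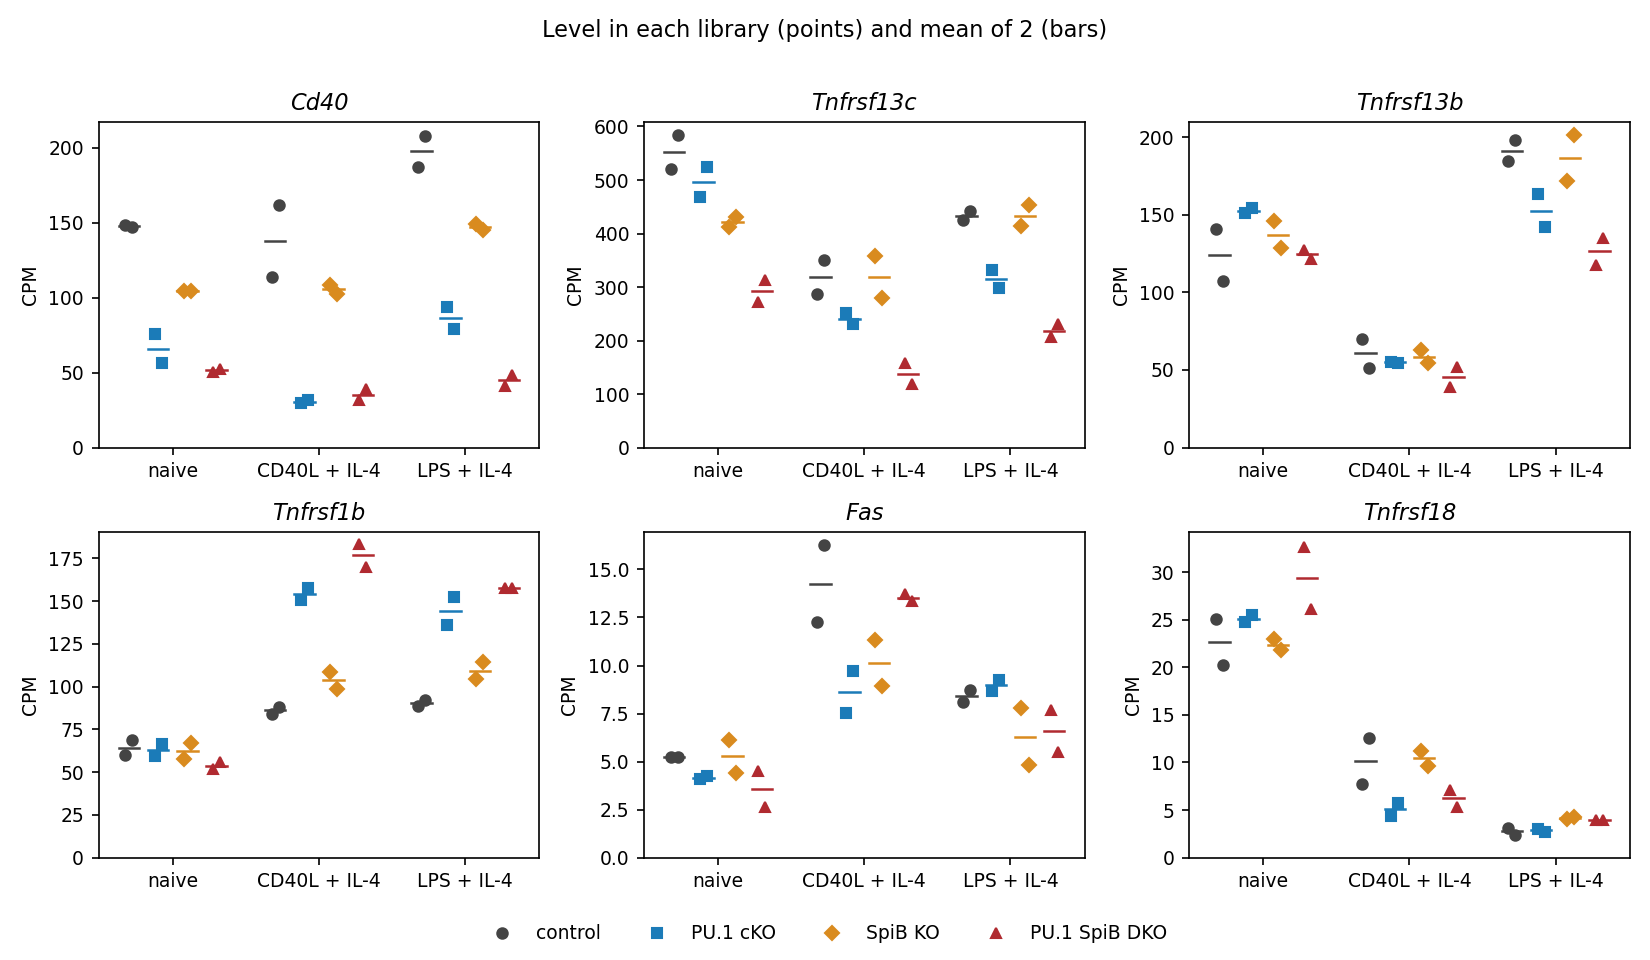
CPM (y axes, linear, from 0) of the 6 members with the highest levels, with 1 point for each library and the groups on the x axis ordered by stage and genotype. Cd40 in the PU.1 SpiB DKO libraries lies between 31.4 and 52.6 CPM at every stage, below all control libraries, which lie between 114 and 208 CPM.

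Tnfrsf13c (chr15:82221742-82224380) encodes BAFF-R, the receptor through which BAFF keeps follicular B cells alive, and it was lowest in PU.1 SpiB DKO cells at every stage. In naive cells it stood at 521 and 585 CPM for control, 469 and 524 CPM for PU.1 cKO, 411 and 432 CPM for SpiB KO and 272 and 313 CPM for PU.1 SpiB DKO. The PU.1 cKO libraries overlapped control and the PU.1 SpiB DKO libraries were below every other. The log2 change was -0.92 (SE 0.12, edgeR adjusted p = 0.000824) for PU.1 SpiB DKO and -0.39 (SE 0.12, edgeR adjusted p = 0.0975, fold under 1.5) for SpiB KO.

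In CD40L + IL-4 Tnfrsf13c stood at 286 and 351 CPM for control, 251 and 230 CPM for PU.1 cKO, 359 and 280 CPM for SpiB KO and 158 and 118 CPM for PU.1 SpiB DKO. In LPS + IL-4 it stood at 425 and 441 CPM for control, 332 and 299 CPM for PU.1 cKO, 414 and 452 CPM for SpiB KO, and 206 and 231 CPM for PU.1 SpiB DKO. In both cultures SpiB KO overlapped control, PU.1 cKO lay below them and PU.1 SpiB DKO was lowest. Against control the PU.1 SpiB DKO log2 change was -1.21 (SE 0.19, edgeR adjusted p = 0.00224) in CD40L + IL-4 and -0.99 (SE 0.09, edgeR adjusted p = 6.65e-05) in LPS + IL-4. In PU.1 cKO it was -0.41 (SE 0.19, edgeR adjusted p = 0.24) and -0.46 (SE 0.09, edgeR adjusted p = 0.0107, fold under 1.5).

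Tnfrsf13c in PU.1 SpiB DKO had a log2 change from PU.1 cKO of -0.76 in naive cells (SE 0.12, edgeR adjusted p = 0.00278), -0.80 in CD40L + IL-4 (SE 0.19, edgeR adjusted p = 0.0707) and -0.53 in LPS + IL-4 (SE 0.09, edgeR adjusted p = 0.00596, fold under 1.5). The CD40L + IL-4 call was lost without PU.1 cKO replicate 1 (-0.76, edgeR adjusted p = 0.287), PU.1 cKO replicate 2 (-0.87, 0.211) or PU.1 SpiB DKO replicate 2 (-0.62, 0.428). B cell markers moved with these 2 members at some stages. The 6 general ones summed to 10207 to 10440 CPM for naive control and 7677 to 8400 for naive PU.1 SpiB DKO, to 5701 to 7270 and 3734 to 4811 after CD40L + IL-4, and to 3339 to 3888 and 3904 to 3940 after LPS + IL-4. The 4 follicular B cell markers summed to 4780 to 5071 CPM for naive control and 2878 to 3266 for naive PU.1 SpiB DKO, to 1724 to 1983 and 549 to 704 after CD40L + IL-4, and to 979 to 1225 and 538 to 612 after LPS + IL-4. Of these 4 markers 1 was called lower in naive cells and 2 in each culture, and their part in the result was not tested. The Cd40 and Tnfrsf13c calls in PU.1 SpiB DKO against control held at every setting and without any 1 library, with ranges over left-out libraries of -2.28 to -1.49 for Cd40 and -1.43 to -0.82 for Tnfrsf13c over the 3 stages.

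Whether loss of both factors changed a member by more or less than the sum of the single losses on the log2 scale was tested as an interaction. The study reported complete removal of the floxed Spi1 exon in naive PU.1 cKO cells but partial retention in naive PU.1 SpiB DKO cells. The naive interaction therefore does not compare full loss of both factors with the single losses. The main edgeR fit called no member at any stage, at an adjusted p under 0.15. Over all genes it called 0.936% in naive cells, 1.17% after CD40L + IL-4 and 1.48% after LPS + IL-4. At an unadjusted p under 0.05 there were 1, 3 and 2 members, and DESeq2 called 0, 0 and 2 and voom 0, 0 and 1. In LPS + IL-4 the interaction was -0.52 for Cd40 (SE 0.16, edgeR adjusted p = 0.268) and -0.53 for Tnfrsf13c (SE 0.13, edgeR adjusted p = 0.158). Libraries with the same replicate number deviated together at that stage. A fit with that number as a block called both, at -0.53 for Cd40 (edgeR adjusted p = 0.0764) and -0.53 for Tnfrsf13c (edgeR adjusted p = 0.0313). With the block Tnfrsf13c (-0.37, edgeR adjusted p = 0.0836) and Tnfrsf13b (-0.44, edgeR adjusted p = 0.118) were called in naive cells. Without a filter edgeR called Tnfrsf13c (-0.84, adjusted p = 0.0532) and Fas (1.09, adjusted p = 0.0896) in CD40L + IL-4, and Cd40 and Tnfrsf13c in LPS + IL-4. A fit of all 24 libraries called Tnfrsf13c in CD40L + IL-4.

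Tnfrsf13b (chr11:61126283-61153170, whose span overlaps that of Usp22) encodes TACI, which binds both BAFF and APRIL. Its naive levels were 141 and 107 CPM for control, 151 and 154 CPM for PU.1 cKO, 146 and 128 CPM for SpiB KO and 127 and 122 CPM for PU.1 SpiB DKO, with no genotype called. In CD40L + IL-4 all 8 libraries lay between 39.1 and 70.2 CPM, again with no call. In LPS + IL-4 the levels were 184 and 198 CPM for control, 163 and 142 CPM for PU.1 cKO, 172 and 201 CPM for SpiB KO and 118 and 135 CPM for PU.1 SpiB DKO, whose libraries were below all others. The PU.1 SpiB DKO change there was -0.60 on the log2 scale (SE 0.11, edgeR adjusted p = 0.00334). Its fold came under 1.5 without PU.1 SpiB DKO replicate 1 (-0.50, edgeR adjusted p = 0.0303) or control replicate 2 (-0.54, edgeR adjusted p = 0.0231).

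Tnfrsf17 (chr16:11313232-11320074) encodes BCMA, the APRIL receptor of plasma cells, and it was at or near 0 in most libraries. No read was counted in the naive control, PU.1 cKO or SpiB KO libraries, which with a floor of 3 counts over the group allows up to 0.113, 0.102 and 0.0905 CPM. In CD40L + IL-4 the PU.1 cKO libraries held 5 and 35 reads, or 0.501 and 0.576 CPM, against 0 and 1 in control, a ratio of 12.1 with a 95% interval of 2.05 to 489 for counting error only. PU.1 SpiB DKO cells had 0 reads in both, so that PU.1 cKO was at least 3.77-fold higher. The gene passed the filter only through the PU.1 cKO libraries and was called there (edgeR adjusted p = 0.135), but not without control replicate 1 (edgeR adjusted p = 0.408) or control replicate 2 (edgeR adjusted p = 0.197). Summed over 6 plasma cell markers the CD40L + IL-4 libraries held 1338 to 1503 CPM for control, 2207 to 2384 for PU.1 cKO, 1282 to 1864 for SpiB KO and 2819 to 2973 for PU.1 SpiB DKO, and no marker was at 0 in any group. The markers' part in the result was not tested.

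**Figure D3:**
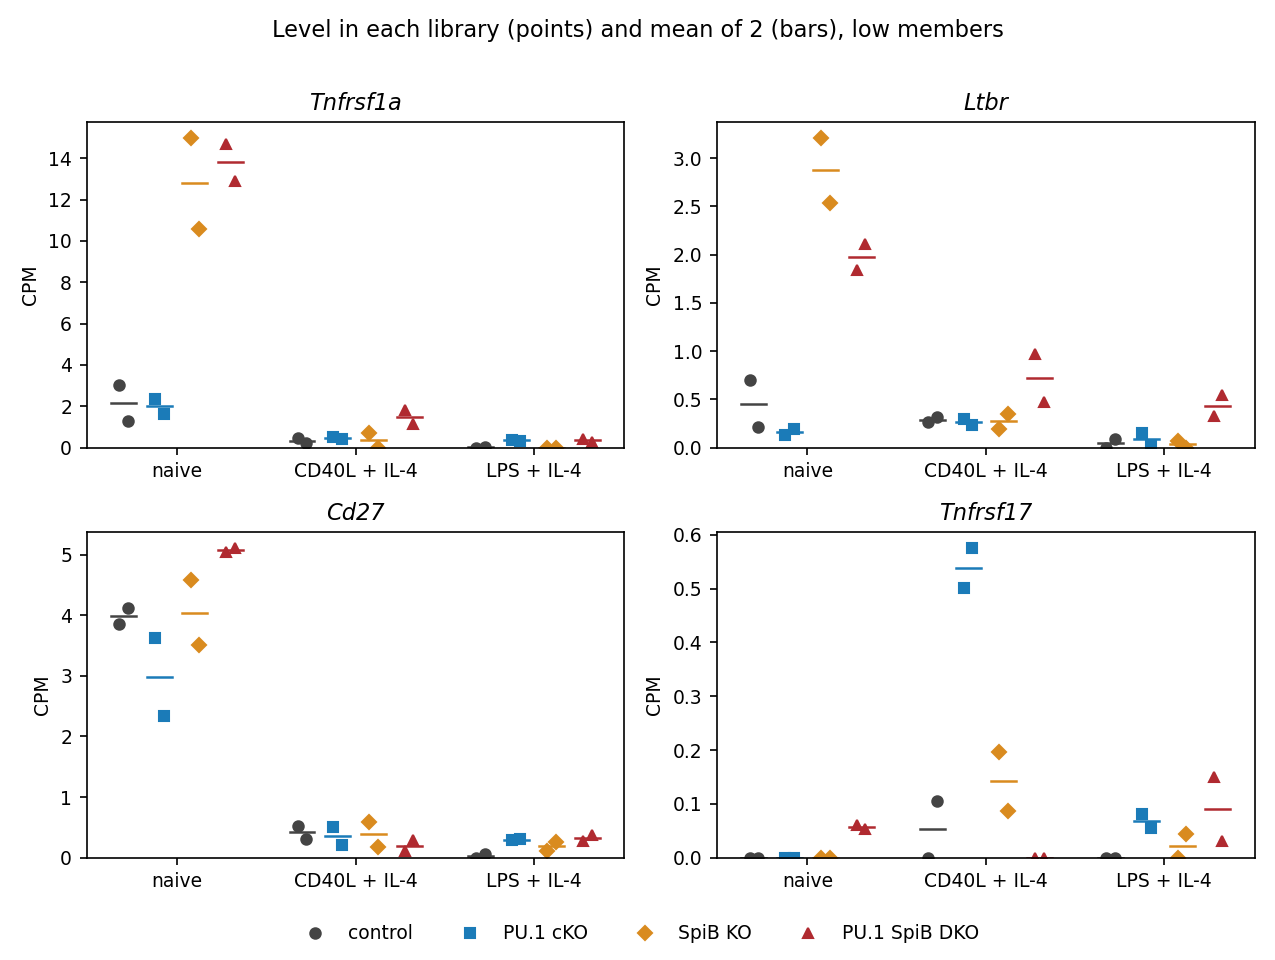
CPM (y axes, linear, from 0) of the 4 members with the lowest levels, with 1 point for each library, by stage and genotype. Tnfrsf1a and Ltbr stand out in the naive libraries without SpiB, at 10.6 to 15 CPM and 1.85 to 3.21 CPM, and Cd27 lies above 2.3 CPM in naive libraries only.

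Tnfrsf1b (chr4:145212368-145246870) encodes TNFR2, the TNF receptor without a death domain, and it was higher in both genotypes that lacked PU.1 once the cells were activated. In naive cells the 8 libraries lay between 51.6 and 68.6 CPM and no genotype was called. In CD40L + IL-4 the levels were 84.2 and 88.3 CPM for control, 150.4 and 158 CPM for PU.1 cKO, 109 and 98.6 CPM for SpiB KO and 184 and 170.0 CPM for PU.1 SpiB DKO. In LPS + IL-4 they were 88.5 and 92.4 CPM for control, 136 and 152 CPM for PU.1 cKO, 104 and 114 CPM for SpiB KO and 157 and 158 CPM for PU.1 SpiB DKO.

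In each culture all Tnfrsf1b libraries of the genotypes without PU.1 lay above all those of control and SpiB KO. Plasma cell markers were also higher in these groups, with 4 of 6 called for PU.1 cKO and 6 of 6 for PU.1 SpiB DKO in CD40L + IL-4 and 5 of 6 for each in LPS + IL-4. Their LPS + IL-4 sums were 726 to 780 CPM for control, 1422 to 1539 CPM for PU.1 cKO, 847 to 899.8 CPM for SpiB KO and 1986 to 2074 CPM for PU.1 SpiB DKO, and their part in the result was not tested. The log2 change in CD40L + IL-4 was 0.84 (SE 0.15, edgeR adjusted p = 0.00505) for PU.1 cKO and 1.04 (SE 0.15, edgeR adjusted p = 0.00103) for PU.1 SpiB DKO. In LPS + IL-4 it was 0.67 (SE 0.09, edgeR adjusted p = 0.00104) and 0.80 (SE 0.09, edgeR adjusted p = 0.000158). Without PU.1 cKO replicate 2 the LPS + IL-4 change in PU.1 cKO was 0.58, with a fold under 1.5. Over the 2 cultures Tnfrsf1b stood at 205% and 174% of the control mean in PU.1 SpiB DKO, against 83.8% in naive cells. This difference in effect between stages was called, at 1.31 for CD40L + IL-4 over naive (SE 0.16, edgeR adjusted p = 2.37e-05) and 0.99 for LPS + IL-4 over naive (SE 0.16, edgeR adjusted p = 0.000342). Since the study treated removal of the floxed exon as incomplete in naive PU.1 SpiB DKO cells, stage and degree of deletion cannot be told apart in these differences.

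Tnfrsf1a (chr6:125349723-125362483) encodes TNFR1, the TNF receptor with a death domain, and it was higher in naive cells without SpiB. The naive libraries held 3.01 and 1.28 CPM for control, 2.36 and 1.64 CPM for PU.1 cKO, 15 and 10.6 CPM for SpiB KO and 14.7 and 12.9 CPM for PU.1 SpiB DKO. All 4 libraries without SpiB lay above all 4 with it. The log2 change was 2.57 (SE 0.36, edgeR adjusted p = 0.00283) for SpiB KO and 2.68 (SE 0.36, edgeR adjusted p = 0.000926) for PU.1 SpiB DKO, and 2.78 (SE 0.36, edgeR adjusted p = 0.000846) for PU.1 SpiB DKO over PU.1 cKO. Summed over both libraries, 448 reads in SpiB KO stood against 61 in control, a ratio of 5.89 with a 95% interval of 4.50 to 7.83 for counting error only. These calls held at every setting and without any 1 library.

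Ltbr (chr6:125306571-125313885) encodes the lymphotoxin beta receptor, which is best known on stromal and myeloid cells and lies 35.8 kb from Tnfrsf1a. Its naive levels were 0.700 and 0.213 CPM for control, 0.127 and 0.190 CPM for PU.1 cKO, 3.21 and 2.53 CPM for SpiB KO, and 1.85 and 2.11 CPM for PU.1 SpiB DKO. Again the libraries without SpiB lay above all others. The log2 change was 2.63 (SE 0.50, edgeR adjusted p = 0.0155) for SpiB KO and 2.09 (SE 0.51, edgeR adjusted p = 0.0196) for PU.1 SpiB DKO. Without any 1 library these values ranged over 2.02 to 3.70 and 1.49 to 3.16. Of the libraries with SpiB only 1, a control, reached the minimum CPM. The gene thus passed the filter only through the libraries without SpiB and adds nothing to the counts of members called. The calls were lost where a mean log2 RPKM above 0 was required.

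Markers of other cells moved with these 2 members in the naive libraries. The study had tied genes that rose in naive cells without SpiB to plasmacytoid dendritic cells, macrophages and CD8 T cells. It proposed that SpiB keeps genes of other lineages low in B cells, which was not tested here. Summed over 7 markers of plasmacytoid dendritic cells the level was 233 to 364 CPM for control, 296 to 348 for PU.1 cKO, 1719 to 2203 for SpiB KO and 2337 to 2656 for PU.1 SpiB DKO, and 7 of 7 were called higher in both genotypes without SpiB. Siglech, a defining one, stood at 57.2 and 23.9 CPM in control and at 237 and 199.9 CPM for SpiB KO. The 9 macrophage markers summed to 13.9 to 25.1 CPM for control, 13.3 to 15.4 for PU.1 cKO, 52.1 to 64.1 for SpiB KO and 72.6 to 72.9 for PU.1 SpiB DKO. Most of that sum was Cd68, at 49.1 and 36.8 CPM for SpiB KO, 55.4 and 52.6 CPM for PU.1 SpiB DKO and 11.3 and 5.76 CPM for control, while Csf1r, a defining one, lay at 0.0711 to 1.001 CPM in all naive libraries. Of the 6 tested, SpiB KO had 1 called higher against control while PU.1 SpiB DKO had 3, and Mertk was at 0 in those groups and in control. The 10 T cell markers summed to 79.4 to 125 CPM for control, 194 to 197 for PU.1 cKO, 420.2 to 507 for SpiB KO and 676 to 686.5 for PU.1 SpiB DKO, with 5 and 6 of 9 tested called higher in the 2 genotypes without SpiB. Cd8a, at 231 and 175 CPM for SpiB KO and 266 and 233 CPM for PU.1 SpiB DKO against 12.0 and 2.35 CPM for control, made up the largest part of that sum, while Cd3e, a defining T cell gene, lay at 0 to 0.632 CPM in all naive libraries. Their part in the result was not tested, and in bulk samples more cells of a type and more RNA per cell cannot be told apart.

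**Figure D4:**
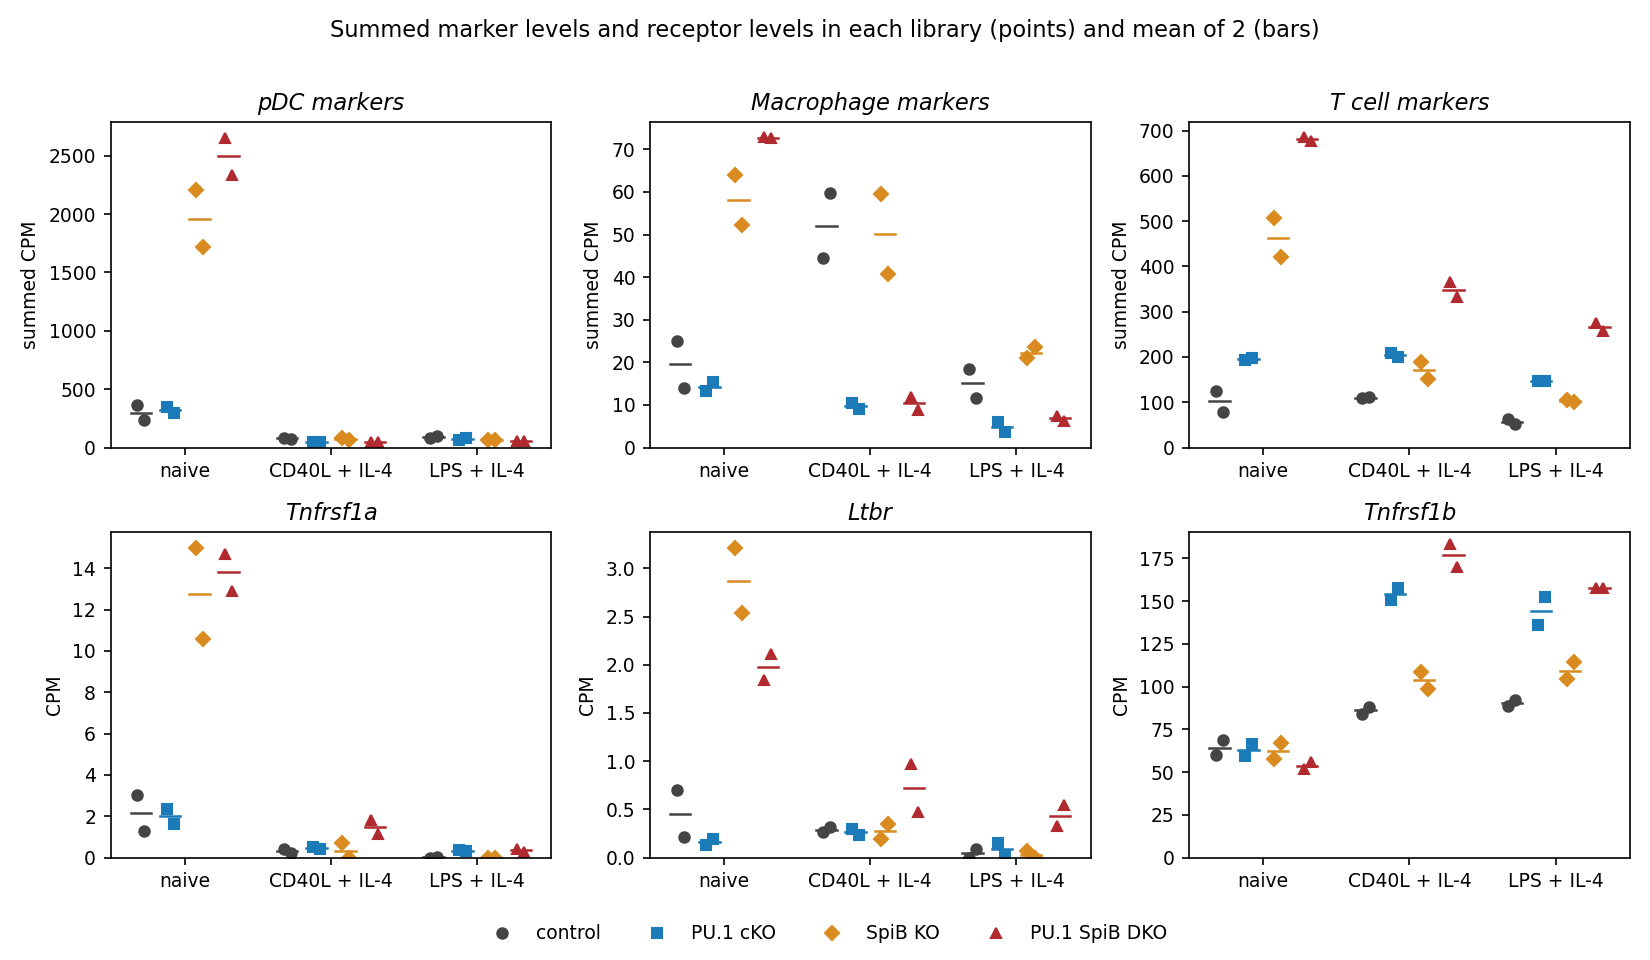
Summed CPM of 7 plasmacytoid dendritic cell, 9 macrophage and 10 T cell markers beside the CPM of Tnfrsf1a, Ltbr and Tnfrsf1b (y axes, linear, from 0), with 1 point for each library by stage and genotype. In naive cells the first 5 of these are higher in both genotypes without SpiB than in control, and Tnfrsf1b, at 51.6 to 68.6 CPM, is not.

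In the cultures Tnfrsf1a and Ltbr were close to the limit of detection. Tnfrsf1a in CD40L + IL-4 gave 17 and 12 reads in PU.1 SpiB DKO, or 1.83 and 1.14 CPM, against 5 and 2 in control, a ratio of 4.42 (95% interval 1.90 to 12.0) that edgeR did not call (adjusted p = 0.168). It was called by edgeR without a filter (adjusted p = 0.0906), with the replicate block (adjusted p = 0.104), with all 24 libraries in 1 fit (adjusted p = 0.049) and without SpiB KO replicate 1 (adjusted p = 0.0779) or 2 (adjusted p = 0.0745). In LPS + IL-4 Tnfrsf1a gave 26 reads in PU.1 SpiB DKO and 1 in control (ratio 27.0, 95% interval 4.44 to 1107), and none in SpiB KO, which allows up to 0.0348 CPM. PU.1 cKO gave 26 and 12 reads there, or 0.351 and 0.333 CPM, beside 0.423 and 0.286 CPM for PU.1 SpiB DKO, so that both genotypes without PU.1 lay above control. Ltbr gave 30 reads against 5 there (ratio 6.23, 95% interval 2.39 to 20.6). The plasmacytoid dendritic cell markers summed to 44.7 to 98.3 CPM in all cultured libraries, with Klk1 at 0 in every group.

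Fas (chr19:34290647-34327775) encodes the death receptor bound by Fas ligand. It lay between 2.63 and 6.13 CPM in the 8 naive libraries and between 4.80 and 9.24 CPM in the 8 LPS + IL-4 libraries, with no genotype called by the main edgeR fit. Naive control held 5.25 and 5.26 CPM, above PU.1 cKO at 4.08 and 4.23 and PU.1 SpiB DKO at 4.49 and 2.63. The naive PU.1 SpiB DKO change was called with voom (-0.92, voom adjusted p = 0.0793) and the replicate block (-0.59, edgeR adjusted p = 0.123). Over left-out libraries it ranged from -0.99 to -0.24. In CD40L + IL-4 it was at 12.3 and 16.2 CPM for control, 7.52 and 9.69 CPM for PU.1 cKO, 11.3 and 8.93 CPM for SpiB KO and 13.7 and 13.3 CPM for PU.1 SpiB DKO. The PU.1 cKO and SpiB KO libraries were below both control libraries, the latter without a call, and the PU.1 SpiB DKO libraries lay between the 2 control values. The PU.1 cKO change of -0.70 (SE 0.23, edgeR adjusted p = 0.0945) was called, but not without control replicate 2 (-0.49, edgeR adjusted p = 0.374), PU.1 cKO replicate 1 (-0.53, 0.352) or PU.1 cKO replicate 2 (-0.91, 0.195).

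Tnfrsf18 (chr4:156026322-156028894, overlapping Gm16008) encodes GITR, a costimulatory receptor best known on regulatory T cells. Its naive levels were 25.1 and 20.2 CPM for control, 24.7 and 25.5 CPM for PU.1 cKO, 23.0 and 21.8 CPM for SpiB KO and 32.7 and 26.1 CPM for PU.1 SpiB DKO, a change of 0.38 (SE 0.16, edgeR adjusted p = 0.138) with a fold under 1.5. In CD40L + IL-4 they were 7.72 and 12.6 CPM for control, 4.41 and 5.77 CPM for PU.1 cKO, 11.2 and 9.62 CPM for SpiB KO and 7.12 and 5.34 CPM for PU.1 SpiB DKO. Both genotypes without PU.1 lay below control. The PU.1 SpiB DKO change was not called in the main fit. It was called without a filter (-0.69, edgeR adjusted p = 0.0995), with the replicate block (-0.69, 0.128) and with all 24 libraries in 1 fit (-0.69, 0.0461). Over left-out libraries it ranged from -1.02 to -0.31. The PU.1 cKO change of -0.96 (SE 0.29, edgeR adjusted p = 0.0712) was called, but not without control replicate 2 (-0.57, edgeR adjusted p = 0.381), PU.1 cKO replicate 1 (-0.78, 0.273) or PU.1 cKO replicate 2 (-1.18, 0.181).

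In LPS + IL-4 Tnfrsf18 lay between 2.43 and 4.26 CPM. The SpiB KO libraries at 4.10 and 4.26 CPM were above the control libraries at 3.11 and 2.43, a change of 0.61 (SE 0.20, edgeR adjusted p = 0.19) that was called with the replicate block (0.61, edgeR adjusted p = 0.107).

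Cd27 (chr6:125232620-125237136, overlapping E130112N10Rik) encodes the receptor for CD70, and with Ltbr and Tnfrsf1a it lies in 129.9 kb of chromosome 6. Its naive levels were 3.85 and 4.12 CPM for control, 3.63 and 2.34 CPM for PU.1 cKO, 4.58 and 3.51 CPM for SpiB KO and 5.04 and 5.11 CPM for PU.1 SpiB DKO. The difference of PU.1 SpiB DKO from PU.1 cKO, 0.77 on the log2 scale (SE 0.29, edgeR adjusted p = 0.137), was called. It was lost without PU.1 cKO replicate 2 (0.49, edgeR adjusted p = 0.568), PU.1 SpiB DKO replicate 1 (0.78, 0.319) or 2 (0.76, 0.323), or SpiB KO replicate 1 (0.77, 0.170) or 2 (0.77, 0.167). It was also lost with DESeq2 (0.76, adjusted p = 0.258), voom (0.46, adjusted p = 0.392) and edgeR on all 24 libraries (0.75, adjusted p = 0.267). In the cultures no library exceeded 0.591 CPM.

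In control cells 6 of the 10 members were called between CD40L + IL-4 and naive cells, 5 of them lower, where 48.8% of all genes were called. Between LPS + IL-4 and naive cells 4 of 10 were called, all lower, against 63.9% of all genes, and between LPS + IL-4 and CD40L + IL-4 6 of 10, against 41.2%. As counted, the members' shares were above, below and above those of all genes, with no test of the differences. Cd27, Tnfrsf1a and Ltbr were among those called lower in LPS + IL-4 in both comparisons with that stage. None of them reached the minimum CPM in an LPS + IL-4 control library. They passed the filter through other libraries and so add nothing to the counts that involve LPS + IL-4.

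Among the receptors with high levels, Tnfrsf13b in control cells was at 141 and 107 CPM naive, 70.2 and 51.3 in CD40L + IL-4 and 184 and 198 in LPS + IL-4. The log2 change was -1.17 (SE 0.17, edgeR adjusted p = 1.13e-05) in CD40L + IL-4 against naive cells and 1.66 (SE 0.17, edgeR adjusted p = 4.21e-07) in LPS + IL-4 against CD40L + IL-4. Tnfrsf13c was also lower in CD40L + IL-4 than in naive cells, with a log2 change of -0.93 (SE 0.15, edgeR adjusted p = 3.78e-05). Cd40 was not called between any 2 stages. Its changes were -0.23 (SE 0.16, edgeR adjusted p = 0.241) in CD40L + IL-4 and 0.29 (SE 0.16, edgeR adjusted p = 0.118) in LPS + IL-4 against naive cells. Between LPS + IL-4 and CD40L + IL-4 the change was 0.52 (SE 0.16, edgeR adjusted p = 0.0124) with a fold of 1.44, and it was called with the replicate block (0.63, edgeR adjusted p = 0.00354) and without CD40L + IL-4 control replicate 2 (0.81, 0.00184) or LPS + IL-4 control replicate 1 (0.60, 0.0186). Tnfrsf1b had changes of 0.29 (SE 0.12, edgeR adjusted p = 0.0399) and 0.36 (SE 0.11, edgeR adjusted p = 0.00806), with folds under 1.5.

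Fas rose in control cells from 5.25 and 5.26 CPM to 12.3 and 16.2 in CD40L + IL-4, a log2 change of 1.30 (SE 0.28, edgeR adjusted p = 0.000543), and was at 8.08 and 8.73 in LPS + IL-4. It was lower in LPS + IL-4 than in CD40L + IL-4, with a log2 change of -0.75 (SE 0.26, edgeR adjusted p = 0.0216), a call lost without the CD40L + IL-4 control replicate 2 (-0.53, edgeR adjusted p = 0.194). Tnfrsf18 fell from naive cells to both cultures, by 1.30 on the log2 scale in CD40L + IL-4 (SE 0.22, edgeR adjusted p = 5.29e-05) and by 3.18 in LPS + IL-4 (SE 0.23, edgeR adjusted p = 3.69e-10).

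The other 3 members called between stages in control cells were measured on few reads. Cd27 gave 113 reads in naive control cells, 9 after CD40L + IL-4 and 3 after LPS + IL-4, so the naive level was 10.2 times the CD40L + IL-4 level (95% interval 5.18 to 22.9) and 114 times the LPS + IL-4 level (38.0 to 560.4). Tnfrsf1a gave 61, 7 and 1 reads, with ratios of 7.07 (3.23 to 18.3) and 184 (31.9 to 7401). Ltbr gave 13, 6 and 5 reads, and its naive level was 7.86 times the LPS + IL-4 level (2.63 to 28.2), a call lost without the naive control replicate 1 (log2 change -1.83, edgeR adjusted p = 0.213). Its CD40L + IL-4 level was 4.47 times the LPS + IL-4 level (1.14 to 18.5), a call (edgeR adjusted p = 0.0963) lost without control replicate 1 (log2 change -2.29, edgeR adjusted p = 0.191) or 2 (-2.02, 0.255) of CD40L + IL-4 or control replicate 1 of LPS + IL-4 (-1.62, 0.218).

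The effect of losing both factors was also compared between stages. It differed for 2 of 10 members between CD40L + IL-4 and naive cells, with 16.8% of all genes called, for 4 of 10 between LPS + IL-4 and naive cells, with 29.6%, and for 2 of 10 between LPS + IL-4 and CD40L + IL-4, with 28.6%. The counts that involve LPS + IL-4 include Cd27, which reached the minimum CPM in no library of that stage. For Cd40 the difference in effect, LPS + IL-4 minus naive, was -0.69 on the log2 scale (SE 0.23, edgeR adjusted p = 0.0477), and for Tnfrsf13c the differences between stages, from -0.28 to 0.14, were not called. The Cd40 call was lost without the LPS + IL-4 PU.1 SpiB DKO replicate 1 (-0.60, edgeR adjusted p = 0.165) or the LPS + IL-4 control replicate 2 (-0.62, edgeR adjusted p = 0.151).

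The other genes of the pathway were described from 3 lists, for PU.1 SpiB DKO against control, where 21.2%, 18.3% and 20.2% of all genes were called in naive, CD40L + IL-4 and LPS + IL-4 cells. Of 15 adaptors and kinases that act below the receptors, all tested at each stage, none was called higher and 2 were called lower in naive cells, 1 after CD40L + IL-4 and 3 after LPS + IL-4, with list medians of -0.26, -0.05 and -0.02 on the log2 scale beside 0.0022, 0.0016 and 0.0076 over all genes. The naive and CD40L + IL-4 counts were below the share of all genes and the LPS + IL-4 count was near it, with no test of the differences. Map3k14, which encodes the kinase NIK, stood at 43.4 and 69.7 CPM in naive control and at 18.6 and 28.7 CPM for PU.1 SpiB DKO, a log2 change of -1.25 (edgeR adjusted p = 0.0123). Traf3, an adaptor that holds NIK down, changed by -0.76 in naive cells (edgeR adjusted p = 0.0337) and by -0.73 in CD40L + IL-4 (edgeR adjusted p = 0.0142). The naive Traf3 call was lost without PU.1 SpiB DKO replicate 1 (-0.64, edgeR adjusted p = 0.197) or control replicate 2 (-0.34, 0.193). In LPS + IL-4 Traf1 stood at 260.1 and 299 CPM in control and at 136 and 144 CPM for PU.1 SpiB DKO (log2 change -0.998, edgeR adjusted p = 5.06e-05), and Cflar, an inhibitor of caspase 8, changed by -0.69 (edgeR adjusted p = 0.00012).

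Of 18 ligands, 10 were tested in naive cells (1 called higher, 1 lower), 9 in CD40L + IL-4 (1 higher, 1 lower) and 9 in LPS + IL-4 (4 higher, 3 lower), with medians of -0.06, 0.26 and 0.54. The naive and CD40L + IL-4 counts were near the share of all genes and the LPS + IL-4 count above it, with no test of the difference. The LPS + IL-4 count includes Tnfsf4, at 0.173 and 0.144 CPM in control and 0.473 and 0.286 CPM for PU.1 SpiB DKO. It fell to 4 where a mean log2 RPKM above 0 was required. Ltb, which encodes the lymphotoxin beta chain, stood at 1542 and 1444 CPM in naive control and at 926 and 855 CPM for PU.1 SpiB DKO (log2 change -0.74, edgeR adjusted p = 0.00302). Tnf in LPS + IL-4 stood at 34.4 and 33.1 CPM in control and at 12.2 and 11.8 CPM for PU.1 SpiB DKO (log2 change -1.50, edgeR adjusted p = 3.18e-05). Lta, the lymphotoxin alpha gene, changed by -1.19 at that stage (edgeR adjusted p = 0.000237), while Tnfsf8, the CD30 ligand gene, changed by 1.94 (edgeR adjusted p = 0.0033). Tnfsf8 dropped out where a mean log2 RPKM above 0 was required.

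Of 18 receptors of the superfamily outside the 10, 12 were tested in naive cells (1 higher), 14 in CD40L + IL-4 (6 higher, 2 lower) and 14 in LPS + IL-4 (5 higher, 1 lower), with medians of 0.32, 0.88 and 0.37. The count was below the share of all genes in naive cells and above it in both cultures, again with no test. Tnfrsf25, called higher in both cultures, had 0 reads in each CD40L + IL-4 control library and 1 in each LPS + IL-4 control library. It passed the filter there only through libraries without PU.1 and so adds nothing to those counts. Where a mean log2 RPKM above 0 was required, 1 call was left in LPS + IL-4. Tnfrsf8, which encodes CD30, stood at 7.11 and 3.77 CPM in CD40L + IL-4 control cells and at 59.6 and 72.1 CPM for PU.1 SpiB DKO, a log2 change of 3.58 (edgeR adjusted p = 7.79e-05). Tnfrsf26 stood at 7.70 and 6.88 CPM in LPS + IL-4 control cells and at 26.6 and 26.8 CPM for PU.1 SpiB DKO (log2 change 1.88, edgeR adjusted p = 1.02e-05). Relt was lower in CD40L + IL-4, at 17.4 and 17.2 CPM against 37.3 and 39.3 in control (log2 change -1.15, edgeR adjusted p = 0.00152). Tnfrsf21, which encodes death receptor 6, was at 13.5 and 12.3 CPM in naive PU.1 SpiB DKO cells and at 4.55 and 3.70 in control (log2 change 1.64, edgeR adjusted p = 0.000865).

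Likeness to Cd40 and Tnfrsf13c was described by Pearson's r of log2 CPM over the 12 group means, among 11580 genes that passed the filter at all stages. Nearest to Cd40 were Zfp28 (r = 0.931), Adam17 (0.927), Lyst (0.921), Kctd14 (0.921) and Znfx1 (0.917). Nearest to Tnfrsf13c were Oas3 (r = 0.970), Atg16l1 (0.957), Cmtr1 (0.953), Vps16 (0.943) and Lyl1 (0.938). The 12 points share libraries between genes and cover 3 stages of different depth.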

How the data were processed

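RNA-seq was carried out on 24 libraries, 2 for each of 4 genotypes at 3 stages. The authors used Subread to align reads to GRCm38 and featureCounts to count those that mapped uniquely over RefSeq exons (versions not given in the sources used here), and 2 tables of raw counts were deposited. A log2 RPKM for each library was deposited as well, which the authors quantile normalized after genes at low CPM were removed, the LPS + IL-4 set apart from the others. 0 columns belonged to no sample.

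From the counts, CPM at TMM library sizes within a stage and edgeR quasi-likelihood tests were computed (R 4.3.3, edgeR 4.0.16, limma 3.58.1), on genes with at least 0.5 CPM in 2 libraries. Each stage was fitted on its 8 libraries, and comparisons across stages on all 24. P-values were adjusted over all genes tested by the Benjamini-Hochberg method, and calls needed an adjusted p under 0.15 and a fold over 1.5, or the adjusted p alone for interactions and for differences in effect between stages. The log2 RPKM was used only to order members within a stage. Intervals of 95% on count ratios are exact and cover counting error only.

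Genotypes came from the labels, and stages from the labels read with the study's methods. The members and gene lists were chosen with earlier results of these data known. All members were named. From each pathway list up to 3 genes in each direction and stage were eligible, by size of change, among those called in PU.1 SpiB DKO against control without overlap of libraries, and a selection of these is given. The 5 genes most like Cd40 and most like Tnfrsf13c were named.

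Same-numbered libraries deviated together in LPS + IL-4 (correlations of 0.386 to 0.514), which was taken as pairing, but not clearly in naive (0.0918 to 0.25) or CD40L + IL-4 cells (-0.07 to 0.266). Alternatives were DESeq2 (1.42.0) and its size factors in edgeR, voom with quantile normalization, no filter, a mean log2 RPKM above 0, an adjusted p under 0.05, 1 fit of all libraries or of the 6 controls, the replicate block, and leaving out each library. The scripts were tested on simulated data.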

Additional observations from a re-analysis of the deposited data

Results flagged for a closer look

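The effect of losing both PU.1 and SpiB, as a log2 change against control, differed between stages for 5 members, by a test of the difference itself in a fit of all 24 libraries. All these differences use the control libraries of 2 stages, and stage and degree of Spi1 deletion cannot be told apart in those against naive cells.

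Tnfrsf1b differed by 1.31 between CD40L + IL-4 and naive cells (SE 0.16, edgeR adjusted p = 2.37e-05) and by 0.99 between LPS + IL-4 and naive cells (SE 0.16, edgeR adjusted p = 0.000342). Naive PU.1 SpiB DKO libraries, at 51.6 and 56.1 CPM, were below both control libraries, and in each culture both were above control. Cd40 differed by -0.69 between LPS + IL-4 and naive cells (SE 0.23, edgeR adjusted p = 0.0477). Tnfrsf13b differed by -0.66 between these stages (SE 0.23, edgeR adjusted p = 0.0602), a call lost without naive control replicate 2 (-0.45, edgeR adjusted p = 0.257), LPS + IL-4 PU.1 SpiB DKO replicate 1 (-0.59, 0.194) or LPS + IL-4 control replicate 2 (-0.62, 0.174).

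Tnfrsf18 differed by -1.06 between CD40L + IL-4 and naive cells (SE 0.31, edgeR adjusted p = 0.0393) and by 1.16 between LPS + IL-4 and CD40L + IL-4 (SE 0.33, edgeR adjusted p = 0.0242). The difference from naive cells was lost without CD40L + IL-4 control replicate 2 (-0.66, edgeR adjusted p = 0.240) or PU.1 SpiB DKO replicate 2 (-0.86, 0.177).

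Cd27 differed by 2.54 between LPS + IL-4 and naive cells (SE 0.85, edgeR adjusted p = 0.0473) and by 3.94 between LPS + IL-4 and CD40L + IL-4 (SE 1.15, edgeR adjusted p = 0.0265). These rest on 3 reads in LPS + IL-4 control cells against 23 in PU.1 SpiB DKO, a ratio of 7.96 with a 95% interval of 2.41 to 41.4 for counting error. The PU.1 cKO libraries held 32 Cd27 reads and the SpiB KO libraries 13 at that stage, so that these too were above control. Without any 1 library the differences ranged over 2.03 to 5.53 and 3.45 to 6.96.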

How the results depend on the processing

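Of the 87 member results called at some setting, none changed sign at any other. Of 57 called results 16 were lost at some setting, and 30 were called only at an alternative. The cause was not tested, except that no filter admits more genes, requiring a mean log2 RPKM above 0 admits fewer, and a left-out library leaves fewer samples, the lone one being assumed to vary like the others.

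Members called moved as follows. Without a filter they were 5 for PU.1 SpiB DKO over control, 2 against PU.1 cKO, 5 against SpiB KO and 2 for the interaction in CD40L + IL-4 (3, 1, 3 and 0 as reported). In LPS + IL-4 they were 4 for PU.1 cKO, 1 for SpiB KO, 7 for PU.1 SpiB DKO, with 2 against PU.1 cKO, 5 against SpiB KO and 2 for the interaction (2, 0, 4, 1, 2 and 0 as reported). In the fit of all 24 libraries they were 5, 3, 5 and 1 in CD40L + IL-4 in the same order, and 4 for PU.1 cKO, 8 for PU.1 SpiB DKO, with 2 against PU.1 cKO and 5 against SpiB KO in LPS + IL-4. With the replicate block they were 5, 2 and 5 in CD40L + IL-4, and the naive interaction went from 0 to 2 (Tnfrsf13b, -0.44, and Tnfrsf13c, -0.37), the SpiB KO count in LPS + IL-4 from 0 to 1 and its interaction from 0 to 2. Voom gave 2 against PU.1 cKO and 5 against SpiB KO in CD40L + IL-4 and 1 interaction in LPS + IL-4, and DESeq2 gave 2 there. An adjusted p under 0.05 left 2 of 5 for PU.1 cKO and 0 of 1 against PU.1 cKO in CD40L + IL-4. A mean log2 RPKM above 0 left 1 of 2 for naive SpiB KO.

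For ligands, of 2 in naive cells, 1 was called with the log2 RPKM requirement and 4 with voom. Of 2 in CD40L + IL-4, 0 were called at an adjusted p under 0.05 and 1 with the RPKM requirement, which left 4 of 7 in LPS + IL-4. Other receptors in naive cells went from 1 to 2 without a filter and in the fit of all libraries. They went from 8 to 4 at an adjusted p under 0.05 in CD40L + IL-4, and from 6 to 1 with the RPKM requirement in LPS + IL-4. Adaptors went from 1 to 2 in CD40L + IL-4 without a filter, with voom and in the fit of all libraries.

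With each library left out in turn, the counts for PU.1 cKO, SpiB KO and PU.1 SpiB DKO against control, for the last against the first and the second, and for the interaction ranged over 1 to 1, 2 to 2, 4 to 5, 3 to 4, 1 to 2 and 0 to 1 in naive cells. The ranges were 2 to 5, 0 to 0, 3 to 4, 0 to 1, 3 to 4 and 0 to 0 in CD40L + IL-4, and 1 to 2, 0 to 1, 3 to 5, 1 to 2, 2 to 3 and 0 to 2 in LPS + IL-4. Control stage comparisons ranged over 6 to 6, 4 to 5 and 5 to 6, and stage differences in effect over 1 to 3, 2 to 4 and 2 to 3. Ligands ranged over 2 to 4, 0 to 2 and 5 to 7 by stage, other receptors over 1 to 3, 4 to 8 and 5 to 10, and adaptors over 1 to 4, 1 to 2 and 2 to 3. Few reads were counted for Tnfrsf17, Ltbr, Tnfrsf1a and Cd27 in the cultures, also in LPS + IL-4, where every library was deeper than the naive ones.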
